A study of Homo sapiens with 6 samples.

Results

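The genes described here are the histone lysine methyltransferases and demethylases, the enzymes that add methyl groups to lysines of histone tails or take them off. They were chosen by symbol alone, which gave 49 symbols in 50 entries of a table of 57773 genes, because KMT2B stood in 2 entries. Of the 50 entries, 48 had enough counts to be tested, among 17805 tested genes in all. Total RNA came from HEK293, an established line derived from human embryonic kidney cells. Of the 6 libraries, 3 carried the genotype label of a knockdown of TRDMT1, an enzyme that methylates a cytosine of some tRNAs, and 3 were labelled control. No treatment, time point, knockdown reagent or clone was named, and HEK293 was the only background that the groups shared by label. The question set by the labels was what the loss of TRDMT1 does to the transcripts of these cells.

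TRDMT1 itself went against the labels. Its deposited RPKM values, reads scaled by exon length and library total, were 0.58, 0.58 and 0.58 in the libraries labelled knockdown and 0.36, 0.36 and 0.28 in those labelled control. The libraries labelled knockdown were thus the higher ones, with a log2 fold change of 0.61 ± 0.21 (SE) and adjusted p = 0.0705 in edgeR's quasi-likelihood F test. The second sample names in the deposited table also read the other way round from the genotype labels. Every direction below is therefore that of the libraries labelled knockdown against the libraries labelled control, and would turn round if the labels were exchanged. Library totals ran from 24776040 to 40088993 counts, and control replicate 2 stood apart from the other libraries. The coefficient of biological variation within a group was 5.45% for the libraries labelled knockdown and 31.8% for those labelled control. Of 9 genes listed for HEK293, 5 were above 1 RPKM in all 6 libraries, with summed levels of 313 to 323 RPKM under the knockdown label and 364 to 510 under the control label. Most of that sum was VIM, at 227 to 232 against 263 to 456 RPKM. PAX2, LHX1, SALL1, WT1 and NEFH were instead higher in every knockdown-labelled library than in any control-labelled library, NEFH at 3.09 to 3.30 against 0.28 to 0.51 RPKM, and PAX8, a kidney transcription factor, was at or near 0. The part of these differences in the results was not tested. Blood cell markers were below 1 RPKM in 6 of 6 genes, with HBB at 0, hepatocyte markers in 4 of 4 and fibroblast markers in 5 of 6.

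Lysine methylation of histones is written by enzymes with a SET domain, and by DOT1L, which has a different catalytic fold. It is removed by the FAD-dependent oxidases KDM1A and KDM1B and by the larger family of iron-dependent JmjC enzymes. Methylation of H3K4 marks promoters and enhancers, H3K36 and H3K79 methylation mark transcribed genes, H3K27 methylation is the mark of Polycomb repression, and H3K9 and H4K20 methylation are found in heterochromatin. Most of these enzymes come as paralogs with overlapping activities and work inside complexes such as COMPASS, PRC2 and CoREST.

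Among the called genes, the promoters of the 2 with the lowest and the 2 with the highest log2 fold change are printed here, because they show how different these windows were. Only the start listed for each gene is used, and whether the counted transcripts began there was not tested. They are RefSeq sequences of build GRCh38.p14, from 250 bases before to 50 bases after the gene start, read 5′ to 3′ on the gene's own strand. Capitals mark matches on either strand to the letters of common promoter motifs, and matches may overlap. The motifs were the GC box with the letters GGGCGG, the box CCAAT, the ETS core with the letters CCGGAAG, the E2F motifs TTTCCCGC and TTTGGCGC, and the cyclic AMP response element (CRE) TGACGTCA. JMJD1C lies at chr10:63269194-63269493 on the minus strand.
JMJD1C promoter: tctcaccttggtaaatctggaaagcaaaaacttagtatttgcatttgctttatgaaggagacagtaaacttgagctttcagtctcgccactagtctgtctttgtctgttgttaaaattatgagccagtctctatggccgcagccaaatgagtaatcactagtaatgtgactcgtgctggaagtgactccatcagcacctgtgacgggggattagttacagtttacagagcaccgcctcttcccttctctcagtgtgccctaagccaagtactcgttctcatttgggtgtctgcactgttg
SUV39H2 lies at chr10:14878616-14878915 on the plus strand.
SUV39H2 promoter: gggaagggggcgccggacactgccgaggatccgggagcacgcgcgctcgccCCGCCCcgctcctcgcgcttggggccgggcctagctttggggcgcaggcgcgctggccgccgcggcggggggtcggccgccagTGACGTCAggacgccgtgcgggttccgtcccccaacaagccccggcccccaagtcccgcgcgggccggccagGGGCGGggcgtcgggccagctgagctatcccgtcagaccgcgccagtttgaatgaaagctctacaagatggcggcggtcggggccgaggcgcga
SETD1A lies at chr16:30957504-30957803 on the plus strand.
SETD1A promoter: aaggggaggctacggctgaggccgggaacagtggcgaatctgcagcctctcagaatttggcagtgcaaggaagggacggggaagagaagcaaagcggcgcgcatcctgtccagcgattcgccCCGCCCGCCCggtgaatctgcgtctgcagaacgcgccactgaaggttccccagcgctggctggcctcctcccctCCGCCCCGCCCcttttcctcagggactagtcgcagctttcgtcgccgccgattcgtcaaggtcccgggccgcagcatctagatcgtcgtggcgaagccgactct
KDM2A lies at chr11:67119013-67119312 on the plus strand.
KDM2A promoter: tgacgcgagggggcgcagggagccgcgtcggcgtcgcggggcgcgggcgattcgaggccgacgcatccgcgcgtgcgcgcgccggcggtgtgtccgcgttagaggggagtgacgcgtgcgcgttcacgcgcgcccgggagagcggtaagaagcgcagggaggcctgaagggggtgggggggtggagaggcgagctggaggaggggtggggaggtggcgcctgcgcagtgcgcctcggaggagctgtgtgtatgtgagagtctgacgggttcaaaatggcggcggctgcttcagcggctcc
The JMJD1C window held 6 CpG dinucleotides and no match to any of these motifs. SUV39H2 and KDM2A each held 44 CpG, SUV39H2 with 2 GC boxes and a CRE, and KDM2A with no match. SETD1A held 30 CpG and 4 GC box matches.

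RefSeq gave a promoter for 45 of the 50 entries, all but SETD1B, DOT1L, SETD8, SUV420H1 and SUV420H2. The median was 30 CpG in a window, with a range of 1 to 56, against a median of 14 over all 27305 promoters of the table. A GC box stood in 34 of the 45 windows (75.6%) and in 44.6% of all promoters, a CCAAT box in 12 (26.7% against 35.7%) and an ETS core in 7 (15.6% against 10.7%). These matches describe the letters of the windows and are not binding sites. Of the called genes with a promoter, 3 of 4 that rose and 3 of 4 that fell held a GC box.

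Adenosine share of the longest transcript ran along with the measured changes, as described further on, and coding sequence is shown here to make that difference in composition visible. JMJD1C had the highest adenosine share of the family and SETD1A was the called gene with the lowest. Each is shown by 90 bases of its coding sequence in GENCODE release 29, the first in-frame window whose adenosine share was closest to that of the whole coding sequence, with adenosine in capitals.
JMJD1C coding bases 223 to 312: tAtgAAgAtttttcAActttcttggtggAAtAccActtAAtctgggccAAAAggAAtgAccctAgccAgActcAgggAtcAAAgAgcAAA
SETD1A coding bases 4 to 93: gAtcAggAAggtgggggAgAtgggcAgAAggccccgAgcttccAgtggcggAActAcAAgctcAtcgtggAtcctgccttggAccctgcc
The JMJD1C window held 31 adenosines (34.4%) and the SETD1A window 19 (21.1%). The whole coding sequences, of 7620 and 5121 bases, held 34.4% and 21.2%.

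Of the 48 tested genes of the family, 4 rose and 5 fell in the libraries labelled knockdown at an adjusted p under 0.05 by edgeR's quasi-likelihood test, and 39 did not pass. The risers were SETD1A, EHMT1, KDM2A and KDM4B, and the fallers JMJD1C, SUV39H2, SETDB2, SETD3 and SETD8. The 9 called genes made up 18.75% of the family, below the 24.0% called over all tested genes (9.29% higher and 14.7% lower), so the family as a whole did not stand out from the transcriptome. Its median log2 fold change was -0.00, with 24 values above 0 and 24 below, against a median of -0.04 over all genes tested. An unadjusted p under 0.05 was reached by 20 of the 48. The design left little margin for single calls: when knockdown replicate 1, 2 or 3 or control replicate 1 was left out, 1, 2, 1 and 2 of the 9 calls held, and when control replicate 2 or 3 was left out all 9 held. JMJD1C was called in 6 of these 6 analyses and SUV39H2 in 4, with a highest adjusted p of 0.0589, while each of the other 7 was called in 2. The directions of the 9 were the same in all 15 alternative analyses, those with RLE size factors or the plain library total included. DESeq2 called 10 genes higher and 5 lower where it called 32.4% of all genes, and RLE size factors gave 4 and 4 (23.9% of all genes). The plain library total and limma on log2(RPKM + 1) gave 6 and 2 each, with 19.9% and 22.5% of all genes called. Scaling by the plain total moved the median of all genes to 0.13 and left 5 of the 9 calls, without EHMT1, SETDB2, SETD3 and SETD8. All fold changes are on a scale set by TMM normalization, whereas the deposited RPKM are divided by the plain library total. A gene with a fold change near 0 can therefore have its higher mean RPKM on the other side. On TMM-scaled counts the 3 libraries labelled knockdown were all above the others in 16 genes of the family (33.3%, against 23.9% of all tested genes) and all below in 10 (20.8% against 26.0%), and in 22 the groups overlapped.

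**Figure D1:**
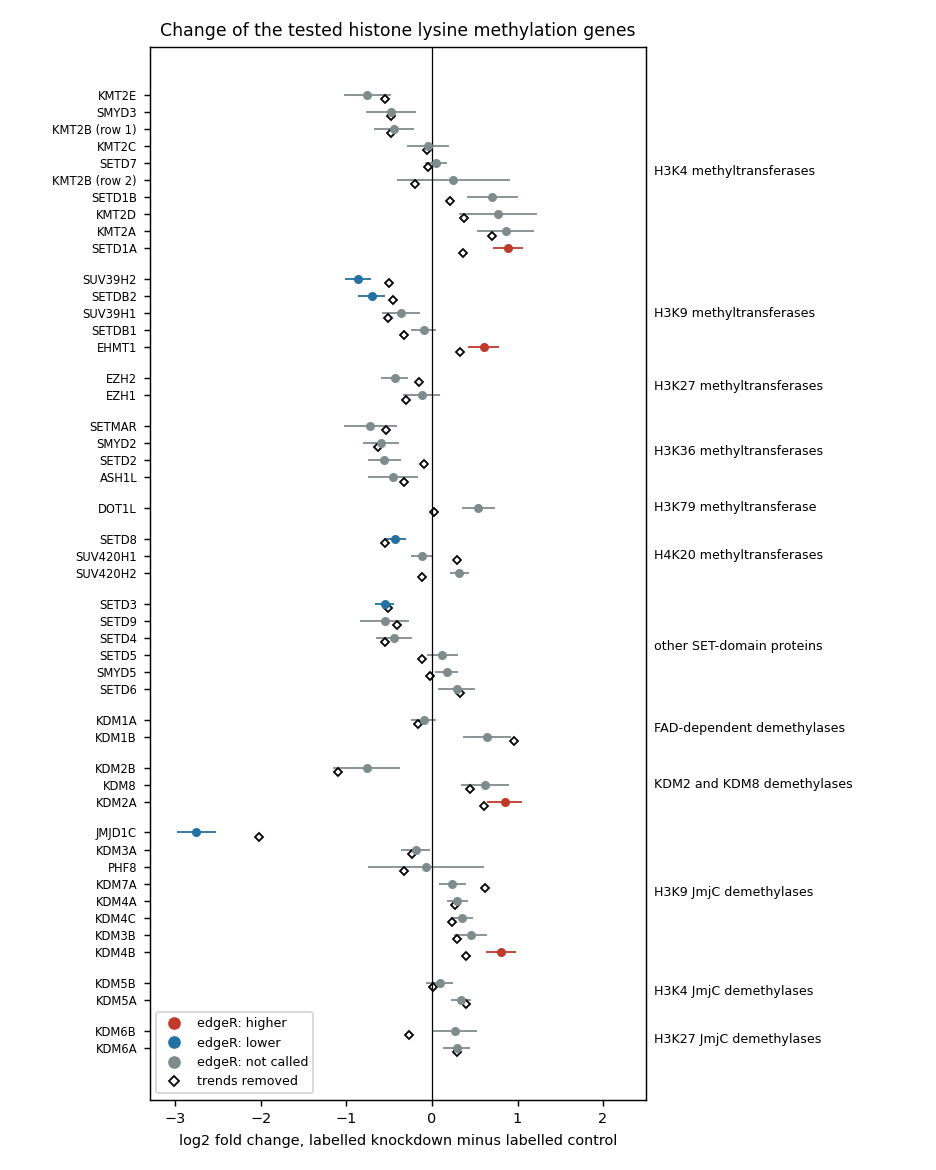
Log2 fold change of every tested gene of the family (libraries labelled knockdown minus libraries labelled control), grouped by target lysine or by enzyme class. Points are the edgeR estimate with its standard error, coloured red for called higher, blue for called lower and grey for not called, and open diamonds give the estimate after removing trends with base composition and length. KMT2B row 1 is ENSG00000105663 and row 2 ENSG00000272333. JMJD1C lies at -2.76, far below the other genes of the family.

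JMJD1C, a JmjC protein of the KDM3 family that is linked to H3K9 demethylation and acts as a transcriptional coactivator, had the largest fall. Its RPKM was 0.82, 0.95 and 0.97 in the libraries labelled knockdown and 5.97, 3.33 and 7.48 in those labelled control. The lowest control value was thus above 3 RPKM and no knockdown-labelled library reached 1. In bulk RNA, less transcript per cell cannot be told apart from fewer cells that carry it. The log2 fold change was -2.76 ± 0.23 (SE), which is 6.76-fold lower, with adjusted p = 0.0007 in edgeR's quasi-likelihood F test. Over all tested genes, 127 had a lower log2 fold change than JMJD1C (0.71% of 17805). Among the 544 genes whose adenosine share was within 1 point of its own (33.9%), the median log2 fold change was -0.89, and 14 genes (2.57%) were lower than JMJD1C. JMJD1C passed the threshold in 15 of 15 alternative analyses, with adjusted p between 1.2e-24 (DESeq2) and 0.0101. Its antisense neighbour JMJD1C-AS1 had 59, 75 and 78 counts under the knockdown label and 37, 48 and 38 under the control label, so the few antisense counts did not follow the fall. These are raw counts and do not show a rise. Library totals were 36455950 to 40088993 under the knockdown label and 24776040 to 26802182 under the control label.

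**Figure D2:**
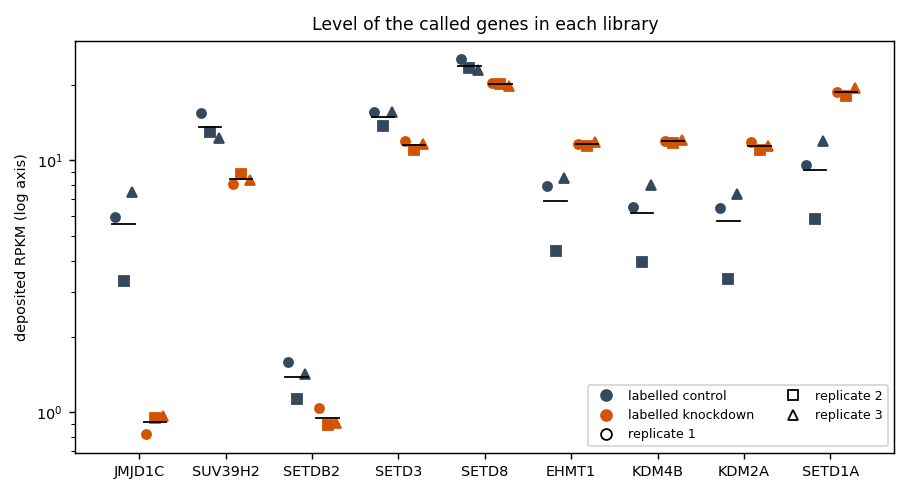
Deposited RPKM (log axis) of the 9 called genes in each of the 6 libraries, with the group mean as a black line. The groups do not overlap in any of the 9, the knockdown-labelled libraries lie close together, and control replicate 2 (dark square) is the lowest control library in JMJD1C, SETDB2, SETD3, EHMT1, KDM4B, KDM2A and SETD1A.

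The methyltransferases of H3K4 gave 1 rise among 10 tested entries. SETD1A, the catalytic subunit of a COMPASS complex that places H3K4 trimethylation at promoters, was at 18.7, 18.0 and 19.4 RPKM under the knockdown label and at 9.57, 5.88 and 11.96 under the control label. Every knockdown-labelled library was above every control-labelled one, and the means were 18.7 ± 0.73 and 9.14 ± 3.1 RPKM (SD, n = 3 each). The log2 fold change was 0.89 ± 0.18 (SE), 1.85-fold higher, with adjusted p = 0.0152 in edgeR's quasi-likelihood F test. SETD1A lies on chromosome 16, where the median log2 fold change of 651 protein-coding genes was 0.52. Its paralog SETD1B did not pass: it was at 7.17, 6.37 and 7.14 RPKM against 4.20, 1.81 and 5.61, a log2 fold change of 0.71 ± 0.30 with an adjusted p of 0.13.

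None of the 6 entries of KMT2 (MLL) enzymes passed the test, with 2 at an unadjusted p under 0.05 and 1 called by DESeq2. KMT2D, which with KMT2C places H3K4 monomethylation at enhancers, was at 11.1, 9.62 and 10.8 RPKM under the knockdown label. In the control-labelled libraries KMT2D was at 5.54, 1.81 and 9.82 RPKM, a wide spread, and its log2 fold change of 0.77 ± 0.45 had an adjusted p of 0.25. KMT2C had a log2 fold change of -0.05 ± 0.24 and RPKM of 2.57, 2.40 and 2.43 against 2.29, 1.31 and 3.35. KMT2E, a family member without known histone methyltransferase activity, was at 3.27, 3.15 and 3.27 RPKM against 4.62, 2.69 and 7.61. Its groups overlapped by RPKM but not on TMM-scaled CPM, where it was at 28.5, 27.3 and 28.3 against 42.8, 30.6 and 68.4. KMT2E had a log2 fold change of -0.75 ± 0.28 with an adjusted p of 0.09, and of -0.98 with an adjusted p of 0.00087 when control replicate 2 was left out. KMT2A, the founding MLL gene, was close to absent in both groups, at 0.18, 0.25 and 0.16 RPKM against 0.10, 0.05 and 0.15. Its groups did not overlap, and its log2 fold change of 0.86 ± 0.34 had an adjusted p of 0.11. KMT2A was the entry called by DESeq2 (adjusted p 0.0496). SETD7 and SMYD3, whose substrates include many other proteins than histones, had log2 fold changes of 0.04 ± 0.13 and -0.48 ± 0.29.

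Of the methyltransferases of H3K9, 1 rose and 2 fell among 5 tested. SUV39H2, which places H3K9 trimethylation in pericentric heterochromatin, was at 8.05, 8.82 and 8.40 RPKM under the knockdown label and at 15.4, 13.0 and 12.2 under the control label. The groups did not overlap, and by RPKM control replicate 1 was the highest library. The means were 8.42 ± 0.39 and 13.5 ± 1.7 RPKM (SD, n = 3 each), with a log2 fold change of -0.87 ± 0.15 (SE), 1.82-fold lower, and adjusted p = 0.0083 in edgeR's quasi-likelihood F test. It passed in 12 of 15 alternative analyses. SUV39H1, its X-linked paralog, was at 0.68, 1.08 and 0.93 RPKM against 1.20, 0.79 and 1.11, so SUV39H2 had by far the higher measured level in both groups. Of the 20 protein-coding genes nearest to SUV39H1, 19 had a mean under 1 RPKM, and what lay behind its low level was not tested. SUV39H1 had a log2 fold change of -0.36 ± 0.23 and did not pass.

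EHMT1 (GLP), which makes H3K9 mono- and dimethylation together with EHMT2 (G9a), was at 11.6, 11.4 and 11.9 RPKM under the knockdown label. The control-labelled libraries were at 7.90, 4.39 and 8.51 RPKM, all lower. Its log2 fold change was 0.60 ± 0.18 (SE) with an adjusted p of 0.047, just inside the threshold, and 0.1 once composition and length trends were removed. EHMT1 lies on chromosome 9, where the median of 576 protein-coding genes was 0.28. EHMT2 had 0 counts in all 6 libraries, which by counting error alone allows up to 0.0103 to 0.0166 RPKM in a library. SETDB2 was low and fell, from 1.58, 1.13 and 1.42 RPKM to 1.04, 0.89 and 0.91, with a log2 fold change of -0.71 ± 0.15 and an adjusted p of 0.0181. After removal of the composition and length trends its adjusted p was 0.071. SETDB1, which works with TRIM28 on zinc finger gene clusters and retroelements, was at 11.6, 11.3 and 11.3 RPKM against 10.1, 11.1 and 10.8, with a log2 fold change of -0.10 ± 0.14.

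Neither of the 2 catalytic subunits of PRC2 passed, with 1 at an unadjusted p under 0.05 and 0 called by DESeq2. EZH2, the form of dividing cells, was at 22.5, 22.2 and 21.1 RPKM under the knockdown label and at 25.9, 27.9 and 24.2 under the control label. Its groups did not overlap, yet the log2 fold change of -0.44 ± 0.16 had an adjusted p of 0.089, and without the composition and length trends it was -0.15 with an adjusted p of 0.52. EZH1, the form that persists in resting cells, had a log2 fold change of -0.12 ± 0.22.

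The 4 methyltransferases of H3K36 all had log2 fold changes below 0, and none passed in edgeR or DESeq2, with 2 at an unadjusted p under 0.05. SETD2, the enzyme of H3K36 trimethylation behind elongating polymerase, was at 6.85, 6.57 and 6.50 RPKM against 8.71, 5.75 and 12.1. By RPKM control replicate 2 alone lay below the knockdown-labelled libraries, while on TMM-scaled CPM the groups did not overlap, and the log2 fold change of -0.56 ± 0.19 had an adjusted p of 0.073. Without that library SETD2 was called lower (-0.71, adjusted p 0.00074 by edgeR's quasi-likelihood test). With the composition and length trends removed it was at -0.09 with an adjusted p of 0.53. SMYD2 (-0.60 ± 0.21), SETMAR, a fusion of a SET domain with a transposase (-0.72 ± 0.31), and ASH1L (-0.46 ± 0.29) had adjusted p of 0.084, 0.13 and 0.28.

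DOT1L, the methyltransferase of H3K79, was at 9.30, 9.14 and 9.99 RPKM under the knockdown label and at 5.98, 3.74 and 7.95 under the control label. The groups did not overlap, with a log2 fold change of 0.54 ± 0.19 and an adjusted p of 0.081. DESeq2 called it. With the composition and length trends removed its estimate was 0.03 ± 0.08 with an adjusted p of 0.85.

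Of the 3 methyltransferases of H4K20, SETD8, which places the monomethyl mark during the cell cycle, fell, where 14.7% of all tested genes fell. It was at 20.4, 20.1 and 19.8 RPKM under the knockdown label and at 25.2, 23.3 and 22.9 under the control label, tight and separate in both groups. Its log2 fold change of -0.43 ± 0.13 (SE), 1.35-fold lower, had adjusted p = 0.0486 in edgeR's quasi-likelihood F test, which became 0.0568 with RLE size factors. SUV420H1 and SUV420H2, which extend the mark to the di- and trimethyl state, had log2 fold changes of -0.11 ± 0.13 and 0.32 ± 0.11. SUV420H2, the most adenosine-poor gene of the family at 17.3%, was at 8.47, 9.16 and 9.17 RPKM against 6.93, 5.54 and 6.58. Its estimate without the trends was -0.12.

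Among the 6 other SET-domain proteins, SETD3 fell (16.7% called, against 24.0% of all tested genes). SETD3, better known as the histidine methyltransferase of actin, was at 11.9, 11.0 and 11.6 RPKM under the knockdown label and at 15.5, 13.7 and 15.6 under the control label. The log2 fold change was -0.55 ± 0.11 (SE), 1.47-fold lower, with adjusted p = 0.0134 in edgeR's quasi-likelihood F test. SETD3 lies on chromosome 14, where the median log2 fold change of 467 protein-coding genes was -0.50, so its fall was close to that of its chromosome. SETD4, SETD5, SETD6, SETD9 and SMYD5 had log2 fold changes between -0.55 and 0.29, and none of them passed in edgeR or DESeq2. SETD6 was called higher without control replicate 2 (0.56, adjusted p 0.0024). It lies on chromosome 16, where the median of 651 protein-coding genes was 0.52 with all libraries.

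KDM1A (LSD1), the H3K4 demethylase of the CoREST complex, had the highest level of the family, with a mean of 46.9 RPKM over the 6 libraries. It was at 48.2, 47.4 and 47.7 RPKM against 50.8, 32.2 and 54.8, with a log2 fold change of -0.10 ± 0.15. Its paralog KDM1B was at 13.3, 12.1 and 12.9 RPKM under the knockdown label and at 8.45, 3.65 and 10.4 under the control label. The groups of KDM1B did not overlap, but the adjusted p of its log2 fold change of 0.64 ± 0.28 was 0.13. With composition and length trends removed, KDM1B was called higher by edgeR's quasi-likelihood test (0.96 ± 0.26, adjusted p 0.045).

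KDM2A, KDM2B and KDM8, listed together as demethylases of H3K36 and H3K4, gave 1 rise among 3, where 9.29% of all tested genes rose. KDM2A, which binds unmethylated CpG islands through its zinc finger, was at 11.8, 11.0 and 11.4 RPKM under the knockdown label and at 6.48, 3.38 and 7.36 under the control label. The lowest knockdown-labelled library was well above the highest control-labelled one, with means of 11.4 ± 0.40 and 5.74 ± 2.1 RPKM (SD, n = 3 each). The log2 fold change was 0.85 ± 0.20 (SE), 1.80-fold higher, with adjusted p = 0.026 in edgeR's quasi-likelihood F test, and it was 0.61 ± 0.14 with an adjusted p of 0.026 with the trends removed. KDM2A passed in 11 of 15 alternative analyses. It lies on chromosome 11, where the median of 784 protein-coding genes was 0.30. KDM2B, the paralog that brings a variant Polycomb complex to CpG islands, was at 0.16, 0.11 and 0.17 RPKM against 0.34, 0.09 and 0.24, with a log2 fold change of -0.76 ± 0.39 and an adjusted p of 0.19. Without control replicate 2, edgeR called KDM2B lower (-1.06, adjusted p 0.0044). KDM8 was at 2.53, 2.76 and 2.55 RPKM against 1.22, 1.92 and 1.25, with a log2 fold change of 0.62 ± 0.28 and an adjusted p of 0.145. It was called higher without control replicate 2 (1.01, adjusted p 0.00015), with the plain library total (0.84, adjusted p 0.0384) and by limma (0.56, adjusted p 0.0331). KDM8 lies on chromosome 16, where the median of 651 protein-coding genes was 0.52.

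The 8 JmjC demethylases of H3K9 held the sharpest contrast, with the fall of JMJD1C beside a rise of KDM4B. KDM4B, which removes di- and trimethyl marks from H3K9, was at 11.97, 11.7 and 12.11 RPKM under the knockdown label and at 6.55, 3.96 and 8.02 under the control label. Its log2 fold change was 0.80 ± 0.18 (SE), 1.75-fold higher, with adjusted p = 0.0200 in edgeR's quasi-likelihood F test, and 10 of 15 alternative analyses called it. KDM4A was at 23.8, 22.8 and 22.5 RPKM against 16.5, 16.1 and 17.0. This was a narrow spread in both groups, and the log2 fold change of 0.30 ± 0.12 had an adjusted p of 0.11. In GENCODE release 29, 48.5% of the exonic bases of KDM4A overlap another gene, and the strand setting of the counting was not given, so reads on that part cannot be told apart from those of the other gene. KDM4C had a log2 fold change of 0.35 and an adjusted p of 0.083. JMJD1C's closest relatives did not pass: KDM3B was at 28.4, 26.1 and 27.8 RPKM against 19.5, 11.3 and 23.6 (0.45 ± 0.19), and KDM3A had a log2 fold change of -0.19. KDM7A did not pass by edgeR's quasi-likelihood test (0.24 ± 0.16, adjusted p 0.29) and its groups overlapped. With the trends removed KDM7A was called higher (0.62, adjusted p 0.011). PHF8 varied from 0.15 to 1.26 RPKM across the libraries with no direction (-0.07 ± 0.67).

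The demethylases of H3K4 in the KDM5 family and of H3K27 in the KDM6 family did not pass, with 1 of 4 tested at an unadjusted p under 0.05 and 1 called by DESeq2, KDM5A. KDM5A, a partner of the retinoblastoma protein, was at 11.2, 10.2 and 10.6 RPKM against 7.67, 6.04 and 8.98. Its groups did not overlap, and its log2 fold change of 0.34 ± 0.12 (adjusted p 0.076) came to 0.40 with adjusted p = 0.035 in edgeR's quasi-likelihood F test when the trends were removed. KDM5B had a log2 fold change of 0.09 and overlapping groups. KDM5C, on the X chromosome, had only 2, 0 and 6 counts under the knockdown label and 2, 7 and 5 under the control label, and was not tested. KDM6A (UTX), also X-linked, was at 18.3, 17.9 and 17.7 RPKM against 13.97, 9.03 and 16.78, and KDM6B (JMJD3) at 6.33, 6.05 and 6.56 against 4.67, 2.63 and 7.04. Their log2 fold changes were 0.29 and 0.27.

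Levels within the family spanned a wide range. By the mean RPKM over the 6 libraries, 15 of the 50 entries were at 10 or more, 27 between 1 and 10, and 8 under 1. The 8 low entries were KMT2A, both KMT2B entries, SUV39H1, EHMT2, KDM2B, KDM5C and PHF8. The KMT2B entry ENSG00000105663 was at 0.22 to 0.45 RPKM and the entry ENSG00000272333 at 0.01 to 0.08, and reads matching both could have been split between them. The surroundings of some low genes were low as well. Of the 20 protein-coding genes nearest to EHMT2 on chromosome 6, 10 had 0 counts in all 6 libraries and 20 had a mean under 1 RPKM. Of the neighbours of KDM5C 7 were at 0 and 17 under 1 RPKM, and of those of SUV39H1 3 and 19, against 10.6% and 42.1% of all protein-coding genes. KMT2A had 3 neighbours at 0 and 12 of 20 under 1 RPKM, and PHF8 had 2 and 13. KDM2B and the KMT2B entry ENSG00000272333 each had no neighbour at 0 and 9 of 20 under 1 RPKM. What lay behind the low levels of these genes and their neighbours was not tested.

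Setting paralogs against each other removes the scale of the library from the comparison, but not the trends with base composition and length. Of 12 pairs compared by the ratio of their length-scaled counts, which is the ratio of their RPKM, none passed an exact two-sided permutation test, which with 3 libraries a group cannot go below p = 0.1 (adjusted p = 0.133 over the 12 pairs). The ratio of KMT2D to KMT2C was 4.34, 4.01 and 4.44 under the knockdown label and 2.42, 1.38 and 2.93 under the control label, a log2 difference of 0.99. The ratio of KDM1A to KDM1B was 3.61, 3.94 and 3.69 against 6.01, 8.83 and 5.28, so LSD1 outweighed its paralog by less in every knockdown-labelled library. SUV420H2 to SUV420H1 was 1.66, 1.83 and 1.84 against 1.37, 1.19 and 1.41. EZH2 to EZH1 was 2.98, 3.17 and 2.86 against 4.69, 3.42 and 3.43, a log2 difference of -0.34, with EZH2 the more abundant paralog in all 6 libraries. With the composition and length trends removed, SUV420H2 had a log2 fold change of -0.12 and SUV420H1 of 0.29. EZH2 was then at -0.15 and EZH1 at -0.31. The order within these pairs was thus opposite to the shift of their ratios. For KMT2D (0.38) and KMT2C (-0.06), and for KDM1A (-0.16) and KDM1B (0.96), the order was that of the ratios. SETD1A to SETD1B, SUV39H1 to SUV39H2 and KDM6B to KDM6A overlapped between the groups, with log2 differences of 0.11, 0.48 and 0.03. The ratio of KDM2B, a gene under 1 RPKM, to KDM2A shifted most. It was 0.0137, 0.0102 and 0.0148 against 0.0531, 0.0281 and 0.0331, a log2 difference of -1.53. SETDB1 to SETDB2, KDM3B to KDM3A and KDM4B to KDM4A were higher without overlap (0.62, 0.66 and 0.53), and KDM5B to KDM5A lower (-0.23). Among the 12 pairs 5 were thus higher and 4 lower without overlap. How often other gene pairs do so was not tested.

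**Figure D3:**
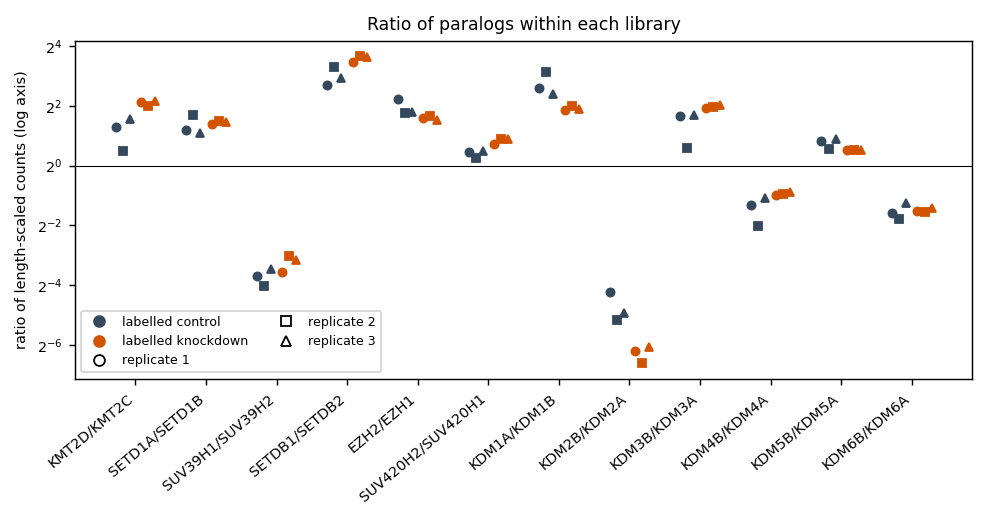
Ratio of the length-scaled counts of 12 paralog pairs in each library (log axis), with libraries labelled knockdown and labelled control in separate colours. KMT2D over KMT2C lies higher and KDM1A over KDM1B lower in all 3 knockdown-labelled libraries, and for both pairs the control-labelled libraries scatter more widely.

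The spread of the control-labelled libraries shaped what could be called. Across the 48 tested genes the highest control-labelled library exceeded the lowest by a median of 1.63-fold in TMM-scaled CPM, and by more than 2-fold in 14 genes. For the knockdown-labelled libraries the median was 1.09-fold, with 1 gene above 2-fold. Control replicate 2 was the lowest of all 6 libraries in 23 of the 48 genes (47.9%, against 32.2% of all tested genes) and the highest in 14 (29.2% against 33.5%). The genes in which it was lowest, among them KMT2A, KMT2C, KMT2D, EHMT1, KDM2A and ASH1L, had a median exonic length of 9430 bases. Those in which it was highest, among them EZH2, SETD8, SUV39H2 and SETD3, had a median of 5031 bases. These ranks are on TMM-scaled CPM and can differ from those by RPKM, where control replicate 1 was the highest library in SUV39H2 and control replicate 2 the lowest control-labelled library in SETD3. Whether this pattern has a part in the changes was not tested beyond leaving the library out.

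**Figure D4:**
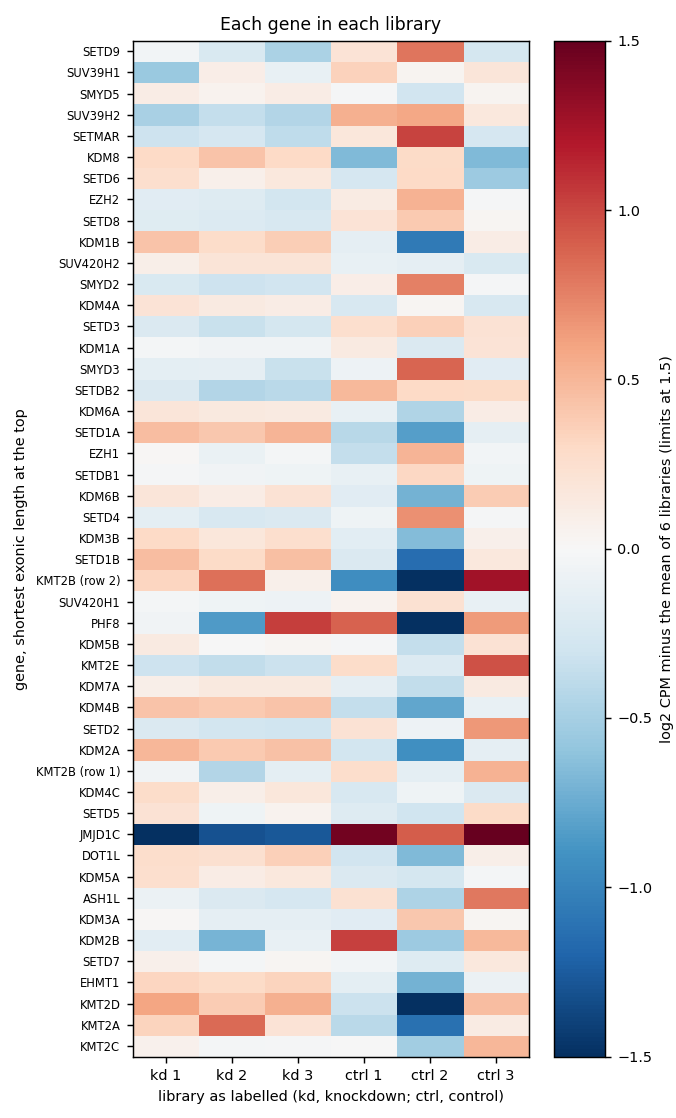
Level of each tested gene of the family in each library, as log2 TMM-scaled CPM minus the mean of the 6 libraries, with genes ordered by exonic length and the colour scale limited at 1.5 either way. The knockdown-labelled columns look alike in most genes (PHF8 is an exception), JMJD1C is the darkest contrast between the groups, and control replicate 2 is low in KMT2A, KMT2C and KMT2D at the bottom.

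Without control replicate 2, 14 genes of the family were called higher and 13 lower by edgeR's quasi-likelihood test, 56.25% of the 48, where 48.5% of all tested genes were called (22.9% higher and 25.6% lower). The 9 called genes all remained, and 18 more passed. Of the methyltransferases of H3K36, 3 of 4 were then called lower. The log2 fold change of JMJD1C was -2.95 ± 0.11 with an adjusted p of 2.3e-07, of SUV39H2 -0.79 with 0.00053, of SETD1A 0.73 with 0.00021, and of KDM2A 0.65 with 0.00014. The calls thus did not need that library. The estimates of the risers were smaller without it, as in size were those of SUV39H2, SETD3 (-0.50) and SETD8 (-0.33). Those of JMJD1C and SETDB2 (-0.73) were larger in size.

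Adenosine share ran along with the changes of the family as it did over all genes. Over the 47 tested genes with a known composition, the correlation of the adenosine share of the longest transcript with the log2 fold change was r = -0.50 (rho = -0.46), and over 17302 tested genes r = -0.41 (rho = -0.41). The trend was not particular to adenosine. Cytosine and guanine shares ran the opposite way, with rho of 0.45 and 0.47 in the family and of 0.43 and 0.32 over all genes. These are correlations across genes measured in the same 6 libraries, and genes are not independent replicates. In the 16 genes of lowest adenosine share (17.3% to 25.5%), which include SETD1A, KDM4B, KDM2A and EHMT1, the median log2 fold change was 0.43 and 12 values were above 0. All 4 risers lay there, and no faller. In the 16 genes of highest share (28.3% to 33.9%) the median was -0.45 and 11 values were below 0, and 4 of the 5 fallers lay there. The medians of all genes over the same ranges were 0.16 and -0.37. After smooth trends were taken out of each library, the correlation in the family was r = -0.13 and the medians were 0.00 and -0.12. The trends were fitted to these same libraries, so their loss over all genes follows from the fit. A true group difference that runs along with composition would be taken out as well.

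**Figure D5:**
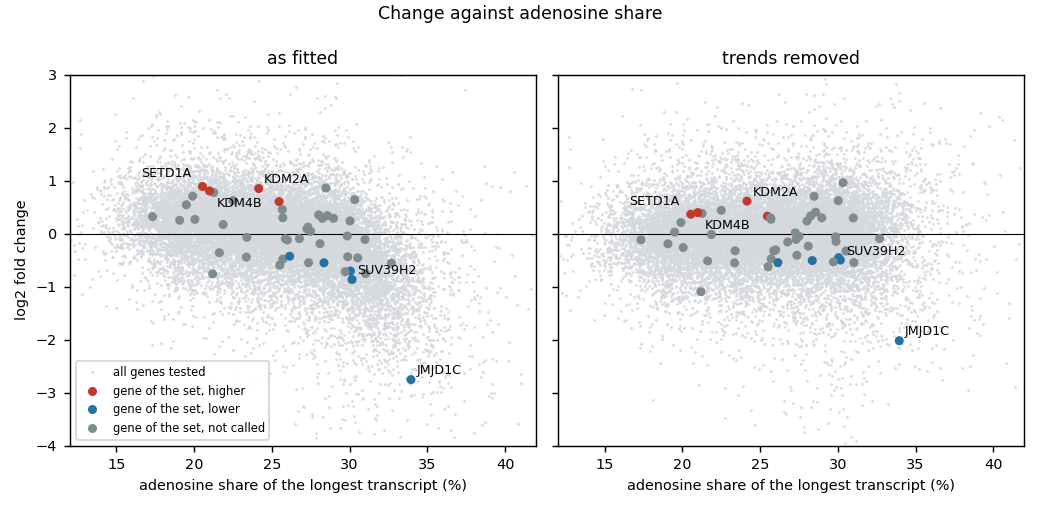
Log2 fold change (libraries labelled knockdown minus labelled control) against the adenosine share of the longest transcript, as fitted (left) and with base composition and length trends removed (right). Light points are all tested genes within the axis limits, coloured points the genes of the family by their call in the analysis as fitted. The downward slope of the left panel is absent on the right, where the fit takes it out, and JMJD1C lies there at -2.02.

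With the trends removed, 6 genes of the family were called higher and 4 lower, 20.8% of the 48 against 20.2% of all genes tested (9.08% higher and 11.2% lower). SETD1A (0.36 ± 0.08), KDM2A and KDM4B (0.40 ± 0.09) stayed among the risers, joined by KDM1B, KDM5A and KDM7A. JMJD1C (-2.02 ± 0.13, adjusted p 0.0008 by edgeR's quasi-likelihood test), SUV39H2 (-0.50 ± 0.12), SETD3 (-0.51 ± 0.09) and SETD8 (-0.55 ± 0.12) stayed among the fallers. EHMT1 and SETDB2 no longer passed. The estimates of SETD1A and KDM4B moved by 0.52 and 0.41 on the log2 scale, and those of SETD3 and SETD8 by 0.04 and 0.12. JMJD1C moved by 0.73, and 183 of all tested genes (1.03%) had a lower value than it.

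Partners of these enzymes were read from lists of complex subunits. Of 13 tested COMPASS subunits, 1 rose and 2 fell, which is 23.1% called, near the 24.0% of all tested genes. MEN1 (menin), which tethers the KMT2A and KMT2B complexes, had a log2 fold change of 0.70 ± 0.14 (adjusted p 0.0157, edgeR's quasi-likelihood test). PSIP1 (LEDGF), a chromatin reader bound by menin, fell by 0.74 on the log2 scale (adjusted p 0.0102) and had 0.17 with an adjusted p of 0.31 when trends were removed. BOD1L1, a partner of SETD1A, had a log2 fold change of -2.20 ± 0.20, and of -1.45 with the trends removed.

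Of 9 PRC2 subunits, 1 rose and 3 fell, where 9.29% of all tested genes rose and 14.7% fell. JARID2, which helps to bring PRC2 to its targets, had a log2 fold change of 0.62 ± 0.12 (adjusted p 0.011, edgeR's quasi-likelihood test). The core subunits SUZ12 (-1.10 ± 0.22, adjusted p 0.015) and EED (-0.71, adjusted p 0.048) and the accessory subunit MTF2 (-0.83, adjusted p 0.005) fell. With the trends removed no PRC2 subunit was called lower, and EED stood at -0.01.

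Of 10 partners of the H3K9 enzymes 4 fell and none rose, where 14.7% of all tested genes fell and 9.29% rose. They were CBX3 (HP1 gamma), a reader of H3K9 methylation (-1.78 ± 0.20, adjusted p 0.0019 by edgeR's quasi-likelihood test), ZNF644, a partner of EHMT1 and EHMT2 (-1.95 ± 0.17), and the HUSH complex subunits FAM208A (-0.996) and PPHLN1 (-0.66). Of 11 partners of KDM1A (36.4% called, against 24.0% of all tested genes), 1 rose, GSE1 (0.81, adjusted p 0.032), and 3 fell, the zinc finger protein ZMYM2 (-1.61 ± 0.12), the deacetylase HDAC2 (-1.14 ± 0.14) and the corepressor RCOR3 (-0.66). None of 4 DOT1L partners was called in edgeR or DESeq2, with 1 at an unadjusted p under 0.05.

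Of 11 tested genes listed with the lysine methyltransferases and demethylases outside the symbol rule, PHF2, an H3K9 demethylase, rose (0.96 ± 0.12, adjusted p 0.003 by edgeR's quasi-likelihood test). The JmjC proteins MINA (-0.70 ± 0.15) and HSPBAP1 (-0.95 ± 0.25) fell. Of 8 tested genes listed with the histone arginine methyltransferases PRMT7 rose (0.41 ± 0.11, adjusted p 0.034) and PRMT5 fell (-0.51 ± 0.13, adjusted p 0.03). That list also counts WDR77, which is not a PRMT gene. Over these 7 lists 5 genes rose and 15 fell, 30.3% of the 66 tested, against 24.0% of all genes. Of the 20, 10 were also called with the composition and length trends removed, and 10 were not, HSPBAP1, MEN1, PSIP1, EED, MTF2, SUZ12, FAM208A, RCOR3, HDAC2 and PRMT7.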

How the data were processed

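RNA-seq counts per gene, not normalized, and RPKM values made by the authors were deposited for 6 libraries in a table of 57773 genes. RPKM equalled the deposited count scaled by exonic length and library total within 0.006 in 100% of values. Per the labels' protocols, ribosomal RNA was depleted, RNA was treated with an RNA methylation (bisulfite) kit, and a stranded kit was used. Whether the table came from treated RNA, and the aligner, strand setting and annotation, are not given in the sources used here. Per the submitters' processing notes, the build was hg19 and the tools named, with no role or order, were HTSeq 0.6.1, edgeR 3.4.6, DESeq2 1.6.3, DESeq 1.18.0, StringTie 1 and bcl2fastq 2.17.1.14.

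Counts were tested over the whole table with edgeR 4.0.16 in R 4.3.3 (filterByExpr, TMM, robust quasi-likelihood F test, Benjamini-Hochberg over 17805 genes, threshold 0.05). Log2 fold changes are the libraries labelled knockdown minus those labelled control, ± SE. On simulated counts for the same 17805 genes, 46% of 100 genes changed 2-fold and 98% of 100 changed 4-fold were called, with 13 of 17605 unchanged genes. The simulation gave both groups the same spread, held no composition trend and changed only genes above a minimum level. The real groups differed in spread, so these shares do not carry over to these libraries. No label names separate cultures within a group of 3, so the p-values reflect only how far these libraries differ, which may be technical. The replicate numbers did not pair the libraries. Every gene of the symbol rule is given, with TRDMT1 and the called genes of the other lists, up to the 4 of smallest p in a list.

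Alternatives were RLE, plain library totals, no filter, DESeq2 1.42.0, limma 3.58.1 on log2(RPKM + 1), a replicate block, each library left out, and composition and length trends removed by smooth terms per library (mgcv 1.9.3), alone, with the block or, chosen after seeing the data, without control replicate 2. Composition came from GENCODE release 29, which is of another build than hg19, for 97.2% of tested genes. The genes and lists were chosen with earlier results of these data known. Floors of 3 counts cover counting error only.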

Additional observations from a re-analysis of the deposited data

How the results depend on the processing

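The 9 called genes of the family kept their direction in each of the 15 alternatives, and no alternative reversed a called gene. The family had 4 genes higher and 5 lower. DESeq2 gave 10 higher, and the plain library total, no filter on low counts and limma-trend gave 2 lower each. Leaving out each library gave 0 to 14 higher and 1 to 13 lower. Over all genes, leaving out each library gave 305 to 4279 higher and 886 to 4784 lower, the plain total 1649 lower and limma-trend 1599 lower. In the other lists, leaving out each library gave 1 to 13 higher and 6 to 22 lower, DESeq2 9 higher, the plain total 8 lower, limma-trend 7 lower and the removal of composition and length trends 8 lower. With those trends removed and control replicate 2 left out, the family had 13 higher and 15 lower, all genes 4370 higher and 4433 lower, and the other lists 14 higher. The median of the family was 0.14 with the plain total. TRDMT1 passed the threshold with the plain total (0.80), DESeq2 (0.64), limma-trend (0.25), without control replicate 2 (0.79) and with the trends removed as well (1.28), and it ran from 0.45 to 0.79 over the analyses that left out each library. The causes were not tested.

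The replicate numbers did not pair the libraries, since same-numbered libraries correlated at -0.04, 0.06 and 0.00. With a replicate block the family had 2 genes lower, and with the block and the trends removed 1 lower, where all genes had 795 higher and 1114 lower and the other lists 2 higher and 4 lower.

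Sign changes concerned only genes of the family that were not called, and each value here is a log2 fold change. With the trends removed KDM6B stood at -0.26, KMT2B (ENSG00000272333) at -0.19, SETD5 at -0.11, SETD7 at -0.051, SMYD5 at -0.018, SUV420H1 at 0.29 and SUV420H2 at -0.12. With the trends removed and without control replicate 2 EZH1 stood at 0.025, EZH2 at 0.032, KDM3A at 0.10, KDM5B at -0.053, KDM6B at -0.32, KMT2B (ENSG00000272333) at -0.46, SETD5 at -0.10, SETD7 at -0.019, SMYD5 at -0.10, SUV420H1 at 0.52 and SUV420H2 at -0.056. In that analysis KDM6B was called lower and SUV420H1 higher. With limma-trend EZH1 stood at 0.084, KDM1A at 0.091, KDM3A at 0.0027, KMT2C at 0.11, PHF8 at 0.027, SETDB1 at 0.084 and SUV420H1 at 0.059. With no filter on low counts KMT2C stood at 0.021. With the plain library total EZH1 stood at 0.081, KDM1A at 0.057, KDM3A at 0.00079, KMT2C at 0.088, PHF8 at 0.035, SETDB1 at 0.091 and SUV420H1 at 0.070. With the replicate block KMT2C stood at 0.012 and PHF8 at 0.050. With the replicate block and the trends removed KDM6B stood at -0.26, KMT2B (ENSG00000272333) at -0.070, SETD5 at -0.11, SETD7 at -0.050, SMYD5 at -0.011, SUV420H1 at 0.32 and SUV420H2 at -0.11. Over the analyses that left out each library, EZH1 ran from -0.26 to 0.15, KDM5B from -0.047 to 0.23, KMT2B (ENSG00000272333) from -0.11 to 1.58, KMT2C from -0.26 to 0.24, PHF8 from -0.72 to 0.34, SETD7 from -0.036 to 0.14 and SETDB1 from -0.16 to 0.049.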
